A study of Mus musculus with 12 samples.

Results

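Cytosolic ribosomal protein genes were examined in chimeric AGO2 eCLIP data from the mouse tibialis anterior, a muscle of the lower leg. Members were the protein-coding genes of GENCODE M21 named Rpl or Rps with a digit, together with Rplp0, Rplp1, Rplp2, Rpsa and Fau, leaving out Rps6 kinases and names ending in -ps with digits. The rule took 87 of 22028 protein-coding genes, 52 with names of the large subunit and 35 of the small subunit, with Rpsa and Fau counted in the latter. Every listed peak that overlapped a member on its strand by at least 1 nt was kept. These were 265 of 92451 peaks in the WT library of set 1, 259 of 119859 in the KO library of set 1, 461 of 244814 in the WT library of set 2 and 442 of 256219 in the KO library of set 2. By name the rule also took Rps19bp1, which encodes a nucleolar protein and no ribosomal protein, and paralogs such as Rpl3l and Rpl22l1.

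Cytosolic ribosomes are built from a large and a small subunit, and most of their proteins come from short, very abundant mRNAs that begin with a 5′ terminal oligopyrimidine (TOP) tract and are translated as a group under the control of mTOR signalling. Many of the genes carry small nucleolar RNAs (snoRNAs) in their introns, which are released from the spliced intron and guide modification of ribosomal RNA. Skeletal muscle also uses Rpl3l, a muscle paralog of Rpl3. AGO2 is the Argonaute protein that carries microRNAs to their target mRNAs, and eCLIP reads RNA cross-linked to it, set against input RNA taken from the same preparation.

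The WT mice were labelled C57BL/6 and the KO mice miR-486-/- on FVB N/J, all 6 months old and male by the study's methods, so genotype and labelled strain cannot be told apart in the labels. The study's methods place both genotypes on C57BL/6J after backcrossing and describe a CRISPR deletion of the mir-486 hairpin and the use of whole muscles, with all their cell types. There were 2 sets, each with 1 WT and 1 KO total AGO2 library and an input for each. The labels do not say whether the sets came from separate animals, so any spread between them may be technical. Of 12 samples, the 4 enriched for miR-486 chimeras were not analysed here. In this bulk tissue, fewer cells of a type and less RNA per cell cannot be told apart.

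The lists differed in size between sets, and set 2 lists were longer in both genotypes. The mir-486 locus, which checks the labels, held 2 peaks in WT set 1 and 4 in WT set 2, all past both thresholds given below, and 0 peaks in both KO lists. All 10 muscle fibre markers had peaks in all 4 lists, and the 3 T cell markers had none in any. The 4 B cell markers had 15 peaks in WT set 2 and 0 in the other lists. Their part in the results was not tested.

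Short windows are shown for the peaks that passed the enrichment thresholds and carry the results below. They were read from the GRCm38.p6 genome on the gene's strand, 5′ to 3′, with coding sequence in capitals. The Rpl39 window is the last 30 nt of exon 1, at chrX:37085125-37085154, and ends in the start codon. The Rpl32 window is the last 30 nt of its exon 1, at chr6:115808698-115808727. The Rpl22l1 window lies in coding sequence at chr3:28807289-28807318. The other windows lie in intronic snoRNA genes, Gm23130 in Rps12 at chr10:23786493-23786522 and Snord4a in Rpl23a at chr11:78181710-78181739.
Rpl39 exon 1: gcgctattcttgattcggcttctcgccATG
Rpl32 exon 1: gcctacgaggtggctgccatctgttttacg
Rpl22l1 coding sequence: CCAGATTAGTCAAGATGAAGATGGTTCAGA
Gm23130 in Rps12: gtcggataccccttcaccccgttcatgggt
Snord4a in Rpl23a: tatttagcgaccaaagtctgataaagatga

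Almost every ribosomal protein gene had a listed peak in the AGO2 libraries, where a listed peak need not be above input. Of the 87 genes, 84 had a peak in at least 1 list and 64 had peaks in all 4. The WT over KO and KO over WT lists of set 1 both held peaks of 64 members and of 9950 of 22028 protein-coding genes. For set 2 these were 80 members and 12256 protein-coding genes. Rpl10l and Rpl39l, paralogs of Rpl10 and Rpl39, and Rps27 had no listed peak. A gene with peaks held a median of 3 peaks in WT set 1 and 4 in each other list. The most were 21 peaks, in Rpl3l in WT set 2. KO set 1 had the fewest genes: 11 genes had a peak in WT set 1 and none in KO set 1, against 1 gene the other way. The same counts over all protein-coding genes were not taken, so these are not read as a result about the members. Member peaks were somewhat shorter than all peaks, with a median of 54 to 59 nt against 62 to 77 nt. Between 16 and 31 member peaks a list also overlapped another same-strand gene that was no small RNA gene.

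Relative to input, the peaks of ribosomal protein genes were lower than peaks of other genes in every library. The deposited log2 fold of IP over input had a median of -0.13 in WT set 1, -1.20 in KO set 1, -0.53 in WT set 2 and -0.55 in KO set 2. Over all listed peaks the medians were 0.68, 0.38, 0.47 and 0.45. The difference from all peaks was -0.90 ± 0.14 in WT and -1.30 ± 0.41 in KO (SD, n = 2 sets). Below input lay 52.5%, 75.3%, 67.5% and 69.7% of member peaks in the same order, against 22.2%, 30.9%, 31.1% and 35.5% of all peaks. Of the 64 genes with peaks in all 4 lists, 40 had a gene median below the all-peak median in all 4 and 2, Rps19 and Rps25, had one above it in all 4. The difference was below 0 in 4 of 4 libraries, and no test was made of it.

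Other lists of the translation machinery had higher medians than the cytosolic ribosomal protein genes in each library. Peaks of the 78 mitochondrial ribosomal protein genes had medians of 0.87 in WT set 1, 0.30 in KO set 1, 0.21 in WT set 2 and 0.24 in KO set 2. Peaks of 18 other genes with TOP mRNAs, such as the elongation factor Eef2 and Tpt1, had medians of 0.46, -0.33, -0.13 and -0.18 in that order. The TOP mRNA genes lay between the cytosolic ribosomal protein genes and all peaks in each library, and the mitochondrial list did so in all but WT set 1, where it was above all peaks. Pseudogenes named after ribosomal protein genes, which can share reads with them, had 0.46, -0.72, -0.53 and -0.55. The large and small subunits were alike, with medians of -0.13 and -0.01 in WT set 1, -1.20 and -1.14 in KO set 1, -0.53 and -0.53 in WT set 2, and -0.63 and -0.54 in KO set 2. No test was made of these lists.

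**Figure D1:**
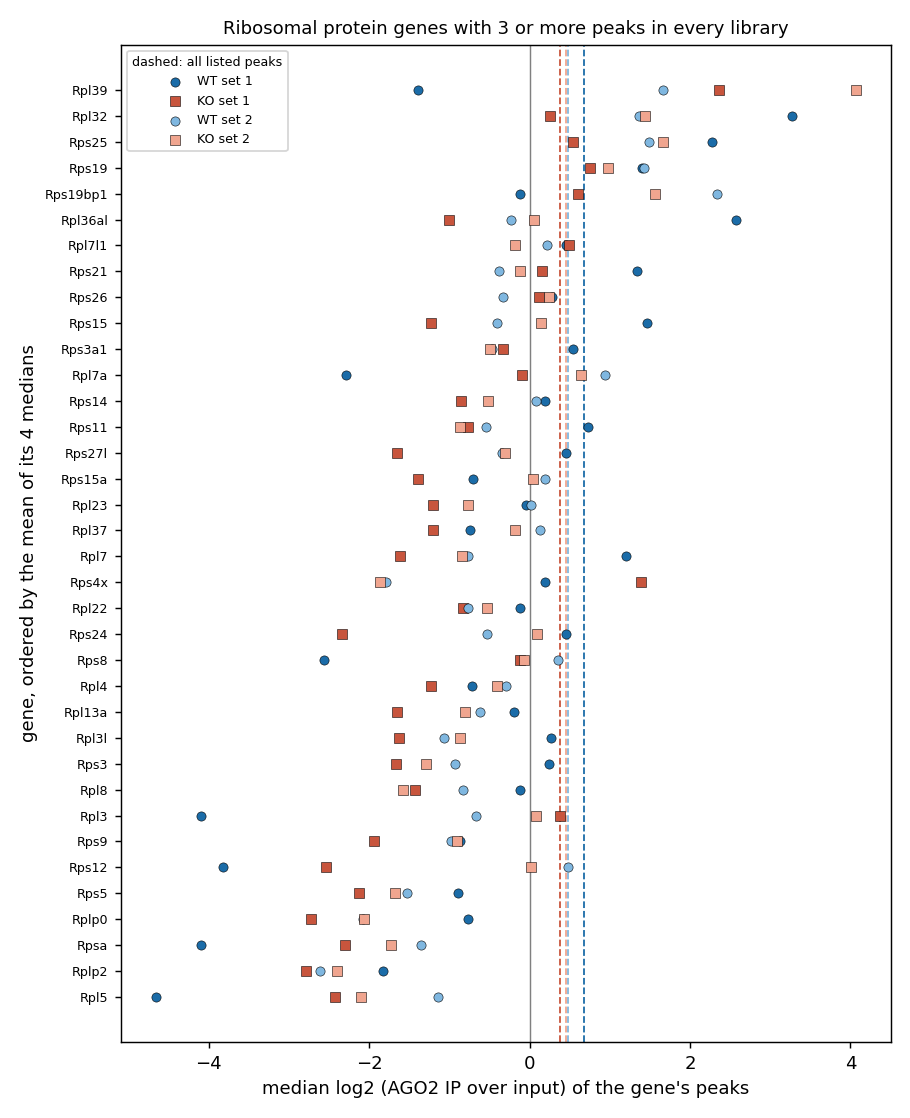
Median log2 fold of AGO2 IP over input for 36 of the 37 ribosomal protein genes with at least 3 listed peaks in every library, with circles for WT, squares for KO, dark colours for set 1 and light colours for set 2; dashed lines give the median of all listed peaks. Most genes lie left of the dashed lines, and Rpl32, Rps19 and Rps25 lie right of 0 in all 4 libraries.

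Peaks past a log2 fold of 3 and a -log10 p of 3, the deposited values, were few. In WT set 1 these were 5 of 265 member peaks, 1.89%, where the share over all peaks was 3.57%. In KO set 1 there were 2 (0.772%, against 0.848% over all peaks), in WT set 2 there were 2 (0.434%, against 1.42%) and in KO set 2 there were 6 (1.36%, against 1.23%). The mean share was 1.16% ± 1.03 in WT and 1.06% ± 0.41 in KO (SD, n = 2). By p alone, a -log10 p of at least 3 with a fold above 1, the counts were 16 in WT set 1 (6.04%, against 7.32% over all peaks), 3 in KO set 1 (1.16%, against 2.15%), 34 in WT set 2 (7.38%, against 6.01%) and 21 in KO set 2 (4.75%, against 5.34%). The peaks past both thresholds came from 5 genes, Rpl39, Rpl32, Rpl22l1, Rps12 and Rpl23a. No gene passed in both WT lists, and Rpl39 alone passed in both KO lists.

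Rpl39, a small protein near the exit of the nascent peptide tunnel, had the highest peak of the members in every library but WT set 2, where the highest was in Rps12. Its exon 1 peak, over the end of the 5′ UTR and the start codon shown above, reached a log2 fold of 6.17 in WT set 1 with a -log10 p of 23.8. The same place reached 4.93 in KO set 1, where 2 adjoining peaks had equal values, and 4.30 in KO set 2. In WT set 2 it reached 1.95 with a -log10 p of 4.80, under the fold threshold. Exon 1 was thus above input in all 4 libraries, with the WT library highest in set 1 and the KO library highest in set 2. In the direct comparison it was higher in WT in set 1, with a log2 fold of 1.30 of WT over KO, while its WT peaks of set 2 were between -0.06 and 0.03. Exon 2 of Rpl39 had peaks in set 2 only, up to 1.73 in WT and 4.56 in KO. The Rpl39 peaks in its last exon were all below input, at -1.39, -0.20, -0.35 and -0.14.

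Rpl32, another large subunit protein, was above input in its first 3 exons in all 4 libraries, with the highest values in WT set 1. In WT set 1 its exon 1 reached 4.59, exon 2 reached 3.29 and exon 3 reached 3.27. In KO set 1 the same exons reached 0.49, 0.36 and 1.13. Set 2 lay between these, with 1.47, 1.45 and 1.94 in WT and 1.72, 1.73 and 1.65 in KO. The WT and KO libraries were thus far apart in set 1 and close together in set 2. Exon 4, which holds the end of the coding sequence, had no peak in WT set 1 and was at 0.06 in KO set 1, 0.84 in WT set 2 and 0.55 in KO set 2. The snoRNA Snora7a, between the first exons of Rpl32, was below input in all 4 libraries.

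Rpl22l1, the paralog of Rpl22, passed in WT set 1 with a coding peak at 4.52 and a -log10 p of 6.79. The overlapping peak was at 1.67 in KO set 1, 2.15 in WT set 2 and 1.18 in KO set 2. It was the higher of the pair in WT in both sets. Rpl22 itself had medians of -0.13, -0.83, -0.77 and -0.53, and no peak past the thresholds.

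**Figure D2:**
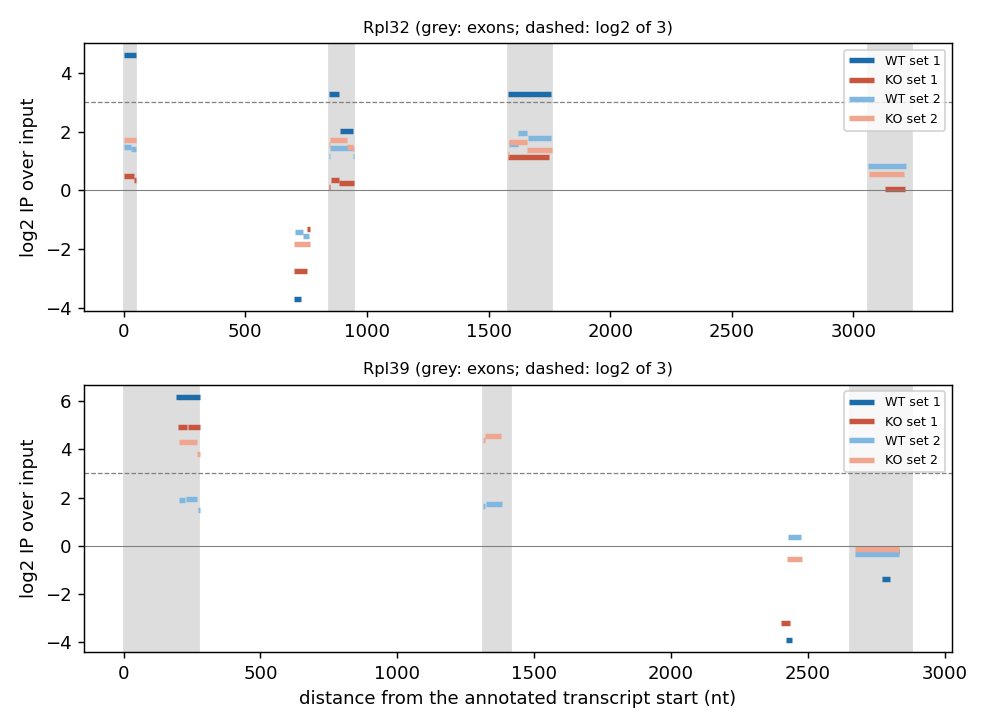
Listed peaks of Rpl32 and Rpl39 by distance in nt from the annotated transcript start (horizontal axis) and log2 fold of IP over input (vertical axis), with 1 colour for each of the 4 libraries, exons in grey and the fold threshold of 3 dashed. The peaks outside the grey bars are at the snoRNAs Snora7a and Snora69; the exon 1 peak of Rpl39 reaches 6.17 in WT set 1.

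The snoRNAs inside ribosomal protein genes made up a separate group of peaks. The members' gene bodies held 58 annotated snoRNA genes and 7 microRNA genes in 32 host genes, and 55 of these 65 had a peak in at least 1 list. Peaks at them were 44 in WT set 1, 48 in KO set 1, 60 in WT set 2 and 62 in KO set 2. Their median log2 fold over input was -3.75 and -2.77 in set 1 for WT and KO, and -0.89 and -1.21 in set 2. Peaks at small RNA genes over the whole genome had medians of 1.46, 1.61, 1.47 and 1.05. Those within ribosomal protein genes lay below that class in each library. The whole-genome class pools snoRNA genes with microRNA genes, whose RNAs AGO2 carries, and its quartiles in WT set 1 were -2.35 and 4.84. Of the members' 7 microRNA genes, 3 had a peak in any list. Other snoRNA genes were not compared alone, so what part of the gap goes with this mix was not tested. Of 33 small RNA genes with a peak in all 4 lists, 21 were below input in all 4 and 1 was above input in all 4. In 32 of the 33 the mean of the set 2 values was above that of set 1.

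The snoRNA families differed in level. Names starting with Snord, the C/D type that guides 2′-O-methylation, had medians of -3.27 and -2.92 in WT and KO of set 1, and 0.13 and -0.09 in set 2, over 11 genes with peaks in all 4 lists. Names starting with Snora, the H/ACA type that guides pseudouridylation, had medians of -4.07, -3.56, -1.21 and -1.58 over 10 genes. Both families were higher in set 2, and Snord names were the higher family in each library.

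The snoRNA peaks that passed the thresholds were in set 2 and in both genotypes. Gm23130, in an intron of Rps12, was at 4.003 in WT and 3.84 in KO with -log10 p of 33.1 and 31.8. In set 1 it was at 1.44 in WT and -0.48 in KO. Snord4a, in an intron of Rpl23a, was at 3.06 in WT and 4.01 in KO of set 2, and at 0.40 and 0.21 in set 1. It was the 1 small RNA gene above input in all 4 lists. The other 2 snoRNAs of Rps12, Snora33 and Snord100, were at -4.31 and -3.83 in WT set 1 and at -0.25 and 0.47 in WT set 2. They were at -2.54 and -3.16 in KO set 1 and at -0.11 and 0.02 in KO set 2, so Gm23130 was the highest of the 3 in each library.

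**Figure D3:**
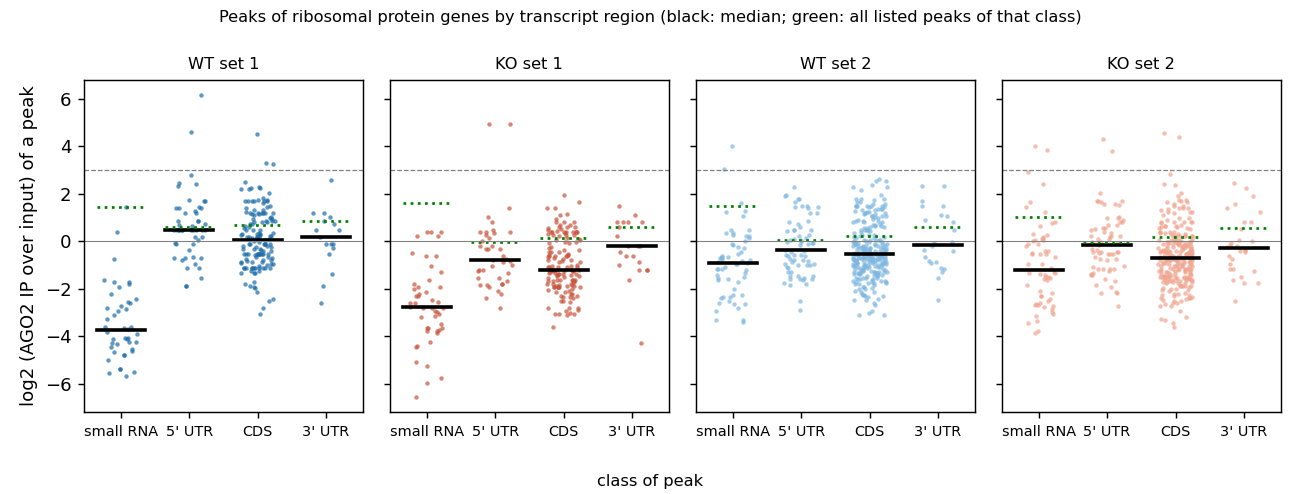
Log2 fold of IP over input of each listed peak of the ribosomal protein genes (points), by library and by class: peaks at small RNA genes (58 snoRNA and 7 microRNA genes) and, without these, peaks in 5′ UTR, coding sequence and 3′ UTR. Black bars are the members' medians, green dotted bars the median of all listed peaks of that class, and the grey dashed line is the fold threshold of 3; the small RNA class is lowest in every library, with -3.75 in WT set 1.

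Without the small RNA peaks, the mRNA peaks were still below all peaks. Their medians were 0.20 in WT set 1, -1.01 in KO set 1, -0.53 in WT set 2 and -0.54 in KO set 2. Coding sequence peaks had medians of 0.04, -1.20, -0.55 and -0.69, against 0.68, 0.12, 0.21 and 0.18 for all coding sequence peaks. Peaks in 5′ UTR had medians of 0.46, -0.79, -0.38 and -0.16, against 0.61, -0.03, 0.06 and -0.03 over all 5′ UTR peaks. They were above the members' coding sequence peaks in each library. Peaks in 3′ UTR numbered 17 to 30 a list and had medians of 0.20, -0.20, -0.14 and -0.29, against 0.87, 0.61, 0.60 and 0.56 over all 3′ UTR peaks.

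The peaks of these genes lay in coding sequence and 5′ UTR more often than other peaks did. Coding sequence held 58.2% ± 6.02 of member peaks in WT and 59.7% ± 4.18 in KO (SD, n = 2), against 45.9% ± 8.18 and 37.5% ± 3.00 of all peaks. The 5′ UTR held 17.4% ± 3.14 in WT and 16.0% ± 0.86 in KO, against 3.59% ± 0.87 and 3.21% ± 0.51 of all peaks. By library the member share ran from 15.2% to 19.6%. The 3′ UTR held 5.81% ± 0.86 in WT and 7.45% ± 0.93 in KO, against 15.7% ± 5.03 and 14.8% ± 4.84. Introns, other than annotated snoRNA exons, held 2.68% ± 1.12 and 0.45% ± 0.64, against 31.5% ± 14.4 and 41.3% ± 2.54. The gene models differed too: the median coding length was 453 nt for members and 1170 nt for all protein-coding genes, and the median 3′ UTR was 94 nt against 727 nt. Between 21.9% and 27.5% of member peaks in a list overlapped a first exon, against 4.95% to 7.85% of all peaks.

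**Figure D4:**
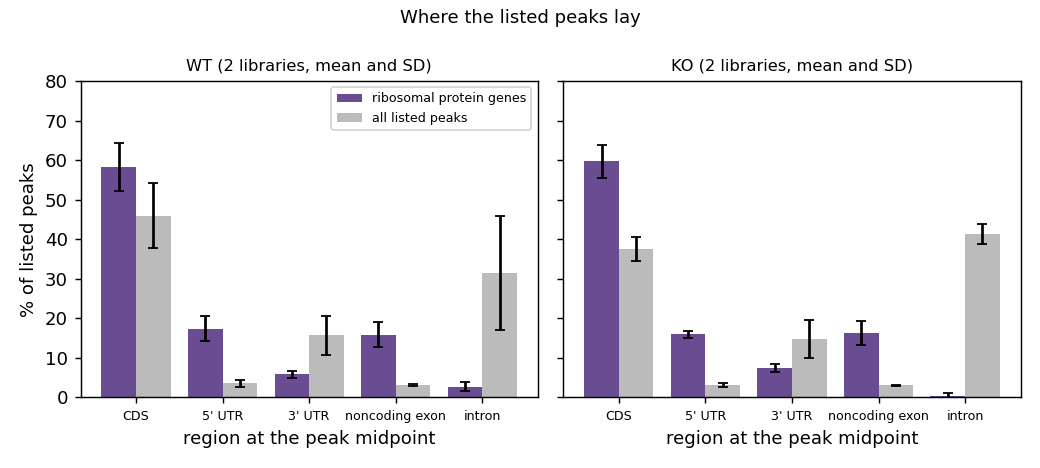
Share of listed peaks by the region at the peak midpoint, in percent, for ribosomal protein genes (purple) and all listed peaks (grey), in WT and KO; bars are means and error bars SD of 2 libraries. Member peaks lie in 5′ UTR (17.4% in WT) and in noncoding exons, mostly snoRNAs, more often than all peaks, and in introns and 3′ UTR less often.

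Seed matches were searched for 6 microRNA families of muscle, in the peaks and the 25 nt flanking them. The seed is the stretch at positions 2 to 8 of the mature microRNA that pairs with a target, and a match is its reverse complement on the strand of the gene. The mature sequences, from RefSeq with GRCm38.p6, are printed with the seed in capitals. miR-1 shares the seed of miR-206, and miR-133a that of miR-133b.
mmu-miR-206-3p: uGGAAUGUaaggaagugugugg
mmu-miR-133b-3p: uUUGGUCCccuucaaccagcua
mmu-let-7a-5p: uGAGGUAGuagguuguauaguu
mmu-miR-29a-3p: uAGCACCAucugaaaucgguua
mmu-miR-30a-5p: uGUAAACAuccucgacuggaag
mmu-miR-10a-5p: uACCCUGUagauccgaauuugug

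Ribosomal protein peaks held these matches less often than all peaks. A match was found in 15 peaks (5.66%) in WT set 1, 16 (6.18%) in KO set 1, 25 (5.42%) in WT set 2 and 26 (5.88%) in KO set 2, against 14.5%, 10.3%, 11.3% and 10.7% of all peaks. Within coding sequence the gap was smaller, with 6.99%, 6.12%, 5.56% and 6.50% of member peaks against 10.3%, 8.47%, 7.51% and 7.53% of all coding peaks. Per 1000 nt searched there were 0.50, 0.54, 0.48 and 0.51 matched member peaks, against 1.19, 0.89, 0.84 and 0.81 over all peaks. The miR-206 seed was matched in 0 member peaks in set 1 and 1 in each list of set 2, whereas 3.00% to 4.81% of all peaks matched it. The miR-30a seed was matched in 1 member peak over the 4 lists. The miR-133b seed was matched in 1.51%, 1.93%, 1.74% and 2.04% of member peaks, against 2.45%, 1.78%, 2.08% and 1.99% of all peaks, and was above the latter in both KO libraries. Peaks with a match had a median fold of -0.37, -1.70, -0.14 and -0.08, and those with none had -0.13, -1.20, -0.53 and -0.57, so the order of the medians turned between sets.

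Of the matches, 11 lay in member peaks, or in the flanks searched with them, in all 4 libraries, 6 of them to miR-29a. Shown are 4 of the other 5, chosen after their values were seen, with the 7-nt match in capitals, in windows of 30 nt read from GRCm38.p6. The Rpl32 sites lie in coding sequence of exons 2 and 3, at chr6:115807833-115807862 and chr6:115807118-115807147, the Rps19 site in coding sequence at chr7:24888443-24888472 and the Rps13 site in 5′ UTR at chr7:116334127-116334156.
Rpl32, miR-133b match: cgtcaaaaagaGGACCAAgaagttcatcag
Rpl32, miR-10a match: aggcattgacaACAGGGTgcggagaaggtt
Rps19, miR-133b match: atggtggaaaaGGACCAAgatgggtatgca
Rps13, let-7a match: tgtgccgtttcCTACCTCgttctctctttg

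At the Rps19 site the highest peak was at 2.24 in WT set 1, 1.97 in KO set 1, 1.23 in WT set 2 and 0.97 in KO set 2. It was above input in all 4 libraries and highest in WT in both sets. The Rpl32 sites lie in the exons described above. In WT set 1 the exon 2 peak that held the miR-133b match was at 2.02, and the peak at 3.29 lay beside the match. At the Rps13 site the values were 0.71, -1.20, 1.64 and 0.46. The miR-133b match in Rps14, in coding sequence, was at 0.82, -0.74, 0.73 and 0.01. The miR-29a matches in Rplp0, Rplp1 and Rps24, all in coding sequence, were below input in all 4 libraries, between -0.37 and -2.92. The peaks at or beside the matches in Rpl17, Rpl27a and Rps3 lay at the snoRNA genes Gm26202, Gm24888 and Snord15b, not in coding sequence or UTR. These were below input too, other than Rpl17 in KO set 2, at 0.14. A match is a sequence description and does not show which microRNA was bound.

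Gene medians set the genes apart from each other in a partly repeatable order. Spearman's rho across genes was 0.86 between WT and KO of set 2 (80 genes) and 0.55 between WT and KO of set 1 (64 genes). It was 0.37 between the WT libraries of the sets and 0.62 between the KO libraries. These are across genes, which are not independent replicates. Among genes with at least 3 peaks in every list, Rps25 and Rps19 were among the 5 highest in all 4 libraries. Rps25 and Rps19, both small subunit proteins, had gene medians of 2.28 and 1.41 in WT set 1, 0.54 and 0.75 in KO set 1, 1.49 and 1.42 in WT set 2, and 1.66 and 0.98 in KO set 2.

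The acidic stalk proteins, which recruit translation factors to the ribosome, were low, and Rplp0 and Rplp2 were among the 5 lowest in KO set 1 and both libraries of set 2, of the genes with at least 3 peaks in every list. Rplp0 had medians of -0.76 in WT set 1, -2.72 in KO set 1, -2.07 in WT set 2 and -2.06 in KO set 2. Rplp2 had -1.82, -2.79, -2.61 and -2.40, and Rplp1 had -0.33, -2.11, -1.25 and -2.25. By their medians, all 3 were below input in all 4 libraries. In Rpl5, Rpsa and Rps12 the low values of set 1 came with snoRNA peaks: Rpl5, which binds 5S ribosomal RNA, had a median of -4.66 in WT set 1 with all peaks and 0.17 without peaks at small RNA genes. Every peak of Rps12 in all 4 lists lay at a snoRNA.

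Members that differ from the usual ribosomal protein were described one by one. Fau, which encodes a fusion of a ubiquitin-like protein with the small subunit protein S30, had medians of -0.54, -0.98, -0.66 and -0.46. Rps27a, a ubiquitin fusion gene, had no peak in set 1 and medians of -0.32 and -0.76 in WT and KO of set 2. Rpsa, also known as a laminin receptor, had 3 peaks in each list of set 1 and 12 and 13 in set 2, and was below input by its median in all 4. Rps19bp1, the nucleolar protein, had medians of -0.13, 0.61, 2.33 and 1.56. It was above 1 in both libraries of set 2.

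Of the 3 paralog pairs with peaks of both genes in all 4 lists, Rpl22l1 had a higher median than Rpl22 in each library, and the orders of Rpl3 with Rpl3l and of Rpl7 with Rpl7l1 changed between libraries. Rpl3 had medians of -4.10, 0.38, -0.66 and 0.09, and Rpl3l had 0.27, -1.62, -1.07 and -0.87. Most Rpl3 peaks lay at intronic snoRNAs. Without these, Rpl3 had 1 peak in WT set 1, at 0.87, and 1 in KO set 2, at 0.56, both above the Rpl3l median, and none in the other lists. The WT set 1 peak had a -log10 p of 0, so this order rests on single peaks and is weak. Rpl3l had more peaks than Rpl3, with 9, 12, 21 and 16 against 3, 5, 4 and 3. Rpl36al had medians of 2.57, -1.01, -0.24 and 0.06. Rpl36a had 0.87 in WT set 1, no peak in KO set 1, and -0.38 and -0.35 in set 2. Rps27l had 4 peaks in each list of set 1 and 8 in each of set 2, where Rps27 had none and Rps27rt had 1 in each list of set 2. Rpl7l1 had medians of 0.46, 0.50, 0.21 and -0.18, and Rpl7 had 1.20, -1.62, -0.76 and -0.84. Rpl10 had 1 to 3 peaks a list, medians of -2.79, -1.97, -0.32 and -0.39, and a peak at Snora70 in each list. Rps4x, encoded on the X chromosome, was at 0.20 and 1.38 in set 1 and at -1.79 and -1.86 in set 2. Near-identical copies can split or lose reads, so the values of these pairs are uncertain.

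In the direct comparison of WT with KO, no ribosomal protein peak passed the fold and p thresholds in either direction. The count was 0 of 265 WT peaks higher in WT in set 1 (0.469% of all peaks passed), 0 of 259 KO peaks higher in KO in set 1 (0.179%), 0 of 460 WT peaks in set 2 (0.0192%) and 0 of 443 KO peaks in set 2 (0.0144%). A lower standard, -log10 p of at least 3 with any log2 fold above 0, was met by 25 member peaks of 15 genes for WT over KO in set 1. That was 9.43% of them, against 6.03% of all peaks. It was met by 0 member peaks for KO over WT in set 1 (0.942% of all peaks), 2 for WT over KO in set 2 (0.435%, against 0.975%) and 0 for KO over WT in set 2 (0.576%). All 27 of these member peaks were thus higher in WT.

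The medians leaned to WT as well, more in set 1 than in set 2. Each list holds the peaks of its own genotype. Over all peaks the median of WT over KO at WT peaks was 0.74 in set 1 and 0.30 in set 2, and that of KO over WT at KO peaks was 0.72 and 0.27. Member peaks had 0.74 and 0.18 at WT peaks, and -0.65 and -0.22 at KO peaks. Member medians were thus on the WT side in all 4 lists. How they stood to other peaks depended on the class of peak. Among coding sequence peaks the medians at WT peaks were 0.84 for members and 0.82 for all peaks in set 1, and 0.17 and 0.05 in set 2. For KO over WT at KO peaks, members had -0.74 in set 1 against -0.16 for all coding peaks, and -0.24 in set 2 against 0.04. Member coding peaks of set 1 were thus nearly level with all coding peaks at WT peaks, and further to the WT side in the other 3 lists. Per gene, the value for WT minus the value for KO, averaged over both lists of a set, had a median of 0.65 in set 1 over 64 genes and 0.22 in set 2 over 80 genes. Over all protein-coding genes it was 0.16 and 0.06.

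A gene can be on the WT side in both lists of a set, and 70.3% of the ribosomal protein genes were in set 1 (45 of 64) and 72.5% in set 2 (58 of 80). Over all protein-coding genes the shares were 29.04% and 28.7%. Those genes were not matched to the members for peak region or read number, here or for the medians above. Introns held 31.5% of all peaks and 2.68% of member peaks in WT, for example. What part of the gap between members and all genes goes with this was not tested. On the KO side in both lists were 7.81% in set 1 and 17.5% in set 2, close to the 7.12% and 16.9% over all genes. Mitochondrial ribosomal protein genes had 69.3% on the WT side in set 1 and 34.6% in set 2. The other TOP mRNA genes had 55.6% and 38.9%. Small subunit genes had medians of 0.67 and 0.30 in the 2 sets, and large subunit genes 0.60 and 0.19. The lists of a set share their libraries, so their shares are given as a description. WT and KO were not tested across libraries, where an exact two-sided permutation of 2 against 2 libraries cannot go below p = 0.333.

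**Figure D5:**
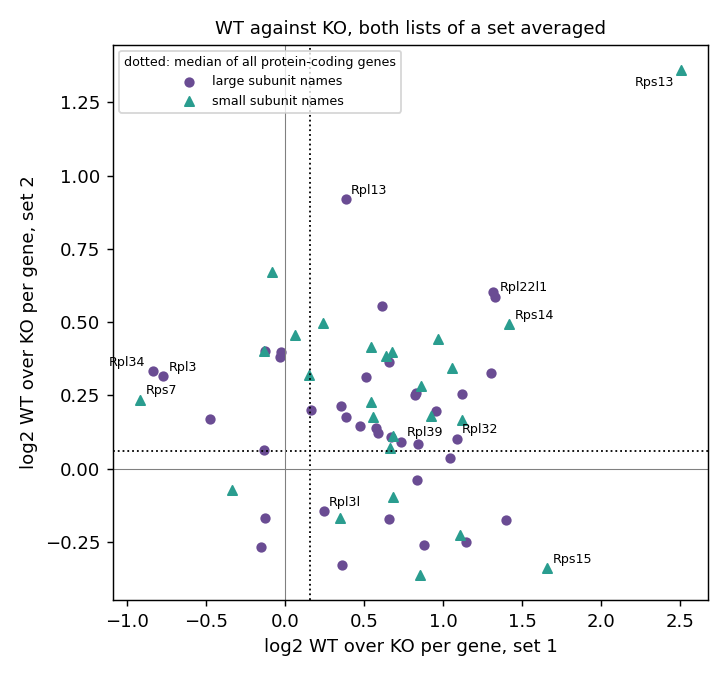
Log2 fold of WT over KO per ribosomal protein gene in set 1 (horizontal axis) and set 2 (vertical axis), each the mean of the WT-list median and the sign-turned KO-list median, for 64 genes with peaks in all 4 lists; circles are large and triangles small subunit names. Dotted lines are the medians of all protein-coding genes, 0.16 and 0.06, and 39 genes lie above 0 in both sets, with Rps13 farthest out.

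The sets did not order the genes alike. Of 64 genes with values in both sets, 39 were above 0 in both, 12 only in set 1, 10 only in set 2, and 3 were below 0 in both. Above 0 were 51 genes in set 1 and 49 in set 2, and the product of these shares gives 39.05 genes above 0 in both, so the sets shared a sign no more often than their separate shares give. Spearman's rho between the sets was -0.08 across these genes, so a gene's value in set 1 did not rank it in set 2. Rps13, a small subunit protein, was highest of these genes in both sets, at 2.51 in set 1 and 1.36 in set 2. It rested on 2 WT and 1 KO peaks in set 1 and 4 and 2 in set 2. Its exon 1 peak was at 2.22 of WT over KO in the WT list and -2.54 of KO over WT in the KO list of set 1, and at 1.29 and -1.56 in set 2.

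Other genes differed more in set 1 than in set 2. Rps15, a small subunit protein, had 4 peaks with -log10 p of at least 3 in set 1, up to a log2 fold of 2.14 of WT over KO. Its gene median at WT peaks was 1.74 in set 1 and -0.35 in set 2. Rpl3l, the muscle paralog, had the largest such peaks, at 2.88, 2.65 and 2.37 at the start of the gene in set 1. The overlapping peaks of WT set 2 were between -0.22 and -0.06. The other Rpl3l peaks of WT set 1 were between -0.58 and 0.84. Rpl32 and Rpl39, described above, were at 1.09 and 0.73 in set 1 and at 0.10 and 0.09 in set 2 per gene. Rps14 was at 1.42 and 0.49 and Rpl22l1 at 1.33 and 0.59, on the WT side in both sets. The Rpl22l1 values rested on 1 WT and 1 KO peak in set 1 and 2 of each in set 2.

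Among genes with at least 3 peaks in every list, those lowest in WT over KO also changed between sets, and all ranks here are within these genes. These values are gene medians at WT peaks alone, not averaged over both lists of a set. In set 1 the lowest were Rps12 (-0.52), Rpl7a (-0.26), Rps15a (-0.23) and Rpl3 (-0.12). Averaged over both lists of set 1, they were at -0.34, -0.47, 0.06 and -0.77 in that order, so the order and the sign of Rps15a depended on the measure. In set 2 Rps15a and Rpl3 were the 2 highest, at 0.54 and 0.53, with Rpl3 resting mostly on snoRNA peaks. The lowest in set 2 were Rps4x (-0.66), Rplp2 (-0.36), Rps15 (-0.35), Rpl7 (-0.31) and Rpl3l (-0.19), and among these Rps15 and Rpl7 were the 2 highest in set 1, at 1.74 and 1.65.

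The values rest on few reads at many peaks. Over-input folds of 47.3% to 69.4% of member peaks fell, within 2e-06, on ratios of whole numbers up to 20 times a constant for the list, which is how a fold of small read numbers looks. Over all peaks 82.7% to 92.2% did. The total read number of a library is unknown here, so no counting interval was given.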

How the data were processed

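Peak lists of total AGO2 chimeric eCLIP libraries were used as the authors deposited them. The submitters' processing notes name cutadapt, UMI-tools, STAR, SAMtools and FastQC and the build GRCm38 (mm10), and per the study's methods peaks were called with CLIPper. Each of the 8 deposited lists gives 1 log2 fold and 1 −log10 p per peak, of IP over input (4 lists) or of WT over KO and KO over WT (4 lists). The deposited −log10 p is 0 wherever the log2 fold is below 0, and its highest value is 400. How reads of multiple mapping were counted is not given in the sources used here.

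Peaks were joined to GENCODE M21 genes on the same strand (at least 1 nt) with pandas 2.3.3 in Python 3.11.15. The labels name release M24, so a few gene bounds may differ. Regions were read at the peak midpoint, coding sequence before UTR. Enriched or called peaks had a log2 fold and a −log10 p of at least 3. Joins were tested on simulated peaks. Values are means over the 2 sets, and no test was made across libraries.

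Named genes were those with an enriched peak in both lists of a genotype or in all 4, those called in a direct list, the 5 highest and 5 lowest medians over input (per library) and of WT over KO (per set) among genes with at least 3 peaks in every list, the paralogs and unusual members, and hosts of snoRNAs with an enriched peak. The values of 1 gene that the rule takes are not reported here. Genes outside this rule (such as Rps13) were named after their values were seen. The members and lists were chosen with earlier results of these data known. miR-486 seed matches were not analysed here, and miR-206 and miR-133b stood for the seeds of miR-1a and miR-133a. Alternatives were other thresholds, overlaps, peak filters, merging, summaries and seed windows, and each set alone.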

Additional observations from a re-analysis of the deposited data

How the results depend on the processing

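Of 95 alternatives over 11 results that kept both sets, 75 kept the value, 19 moved it and 1 turned its sign. Kept meant within the SD between sets or, for the counts called WT over KO and KO over WT, still 0. Part of this tally was fixed in advance. Peak filters and stricter thresholds cannot raise a count of 0, and the overlap of at least 50% changed no value. With a log2 threshold of 1, the enriched share rose to 6.49% in WT and 2.84% in KO. At that threshold 23 peaks in place of 0 were called WT over KO, 22 in set 1 and 1 in set 2. The shares over all peaks at that threshold were not taken, so these are not read as a result about the members. With peaks at small RNA genes left out, the median difference from all peaks in WT was -0.74 and the coding share was 68.3% in WT and 71.1% in KO. With exon peaks only, the coding share in KO was 64.7%, and the median of WT over KO minus all peaks turned from -0.0595 to 0.0522. A mean weighted by peak length gave -1.18 for the WT difference from all peaks. Regions read at the peak 5′ end gave coding shares of 44.2% in WT and 48.9% in KO. The seed match share was 3.73% in WT and 3.63% in KO without extension, and 15.9% and 16.7% with a 6-nt match. Alternatives chosen after seeing the data moved it too: core ribosomal proteins only (6.05% and 6.43%), peaks overlapping another gene left out (5.73% and 6.25%) and, in WT, peaks of 10 nt or less left out (5.91%). Apart from the alternatives' own construction, the cause was not tested.

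Each set alone gave an enriched share of 0.434% to 1.89% in WT and 0.772% to 1.36% in KO. The WT share thus moved by over 1.5 times without either set. The differences from all peaks were -1 to -0.81 in WT and -1.58 to -1.01 in KO, and 0 to -0.12 for WT over KO. Coding shares were 54.0% to 62.5% in WT and 56.8% to 62.7% in KO, seed match shares 5.42% to 5.66% and 5.88% to 6.18%, and counts called 0 in both directions. No paired analysis was possible because no result comes from a test or fit across libraries that could hold the set as a block. The direct lists already set WT against KO within a set. Low read numbers limit single peaks.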
